A study of Mus musculus with 12 samples.

Results

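This report describes 44 genes of mitosis in bone marrow B cells: the kinesin motors that move and divide chromosomes, the proteins that compact and hold them, the kinetochore and its checkpoint, the mitotic kinases, and the machinery that ends division. The members were chosen by name, as genes known for a role in mitosis, and all 44 were found by symbol among the 46983 gene identifiers of the count table. They were 12 kinesins, 6 genes of chromosome structure, 8 of the centromere, kinetochore and checkpoint, 6 mitotic kinases and partners, 7 genes of Cdk1, its cyclins and anaphase, and 5 of the spindle midzone and cytokinesis. RNA-seq libraries were made from mouse bone marrow B cells enriched on magnetic beads and kept in normoxia or hypoxia. There were 4 groups of 3 libraries each, namely WT normoxia, WT hypoxia, KO normoxia and KO hypoxia, where KO stands for the libraries labelled HIF1a KO. In the study's methods the deletion was Hif1a f/f Mb1 cre/+, in which Cre is expressed from the Cd79a locus and so acts in B-lineage cells only, and other cells that come through the beads keep the gene. Whether each library is a mouse of its own is not stated, and the labels give no strain, age or sex, so the p-values measure the spread between these libraries only.

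Cells make most mitotic transcripts shortly before they divide and destroy many of the proteins when division ends, so the RNA of these genes is low in resting cells and high in cells in the G2 and M phases of the cycle. In bone marrow the large pre-B cells and the pro-B cells divide, while small pre-B cells and mature B cells rest. HIF-1, the transcription factor whose oxygen-regulated subunit is encoded by Hif1a, switches on glycolysis genes when oxygen is low and is known to slow proliferation in several cell types.

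The libraries held between 27629175 and 36880082 counted reads, and all 44 members were among the 17506 genes that passed the filter on low counts, so no member was lost to it. Levels below are CPM, the reads of a gene as a share of its library's reads, scaled by edgeR's trimmed mean of M values (TMM). Hif1a itself was at 84.2 to 111 CPM in the WT libraries and at 109 to 136 CPM in the KO libraries, so its RNA was not lower in KO. A count over the whole gene also takes reads from exons outside the deleted part, so it does not check the deletion. Pdk1 and Ldha, glycolytic targets of HIF-1 picked after their values were seen, rose with hypoxia by 3.64 ± 0.15 and 3.06 ± 0.17 on the log2 scale in WT (SE) and by 1.79 ± 0.14 and 1.32 ± 0.16 in KO, and the responses differed (edgeR adjusted p = 0.00227 and 0.00597). All 9 B-lineage markers, such as Pax5 and Ebf1, had counts in every library. WT libraries 1 and 2 of both conditions held Y-linked reads (310 to 396 CPM over 4 genes) and under 1 CPM of Xist, while WT library 3 and the KO libraries held 1368 to 2120 CPM of Xist, and 46.0 CPM of Y-linked reads were found in KO hypoxia library 1.

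The promoters of 6 members are shown first, because they carry the sequence elements that mitotic genes are known to share and the genes recur in the results. Each run is the 120 bases before the RefSeq start site (GRCm38.p6, the build called mm10), read 5′ to 3′ on the strand of the gene. Capitals mark matches, on either strand, to the cell cycle genes homology region (CHR, TTTGAA, or TTCAAA on the other strand) and to the CCAAT box (CCAAT, or ATTGG). The CHR is bound by the MuvB complex, which represses these genes in resting cells and, with B-Myb and FoxM1, activates them before mitosis, and the CCAAT box is bound by NF-Y.
Kif11: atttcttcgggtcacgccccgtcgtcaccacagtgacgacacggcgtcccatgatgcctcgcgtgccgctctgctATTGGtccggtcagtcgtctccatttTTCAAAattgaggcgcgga
Top2a: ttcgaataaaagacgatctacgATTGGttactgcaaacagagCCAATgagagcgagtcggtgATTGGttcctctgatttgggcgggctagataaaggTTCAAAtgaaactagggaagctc
Mki67: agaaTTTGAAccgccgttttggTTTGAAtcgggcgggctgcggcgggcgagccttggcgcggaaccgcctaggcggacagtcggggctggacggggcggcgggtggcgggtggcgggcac
Cdk1: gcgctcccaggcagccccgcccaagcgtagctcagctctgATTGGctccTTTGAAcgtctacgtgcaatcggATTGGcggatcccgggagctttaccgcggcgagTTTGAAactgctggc
Cdc20: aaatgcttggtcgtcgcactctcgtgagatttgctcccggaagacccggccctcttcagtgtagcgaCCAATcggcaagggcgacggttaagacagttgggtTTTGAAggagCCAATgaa
Ccnb1: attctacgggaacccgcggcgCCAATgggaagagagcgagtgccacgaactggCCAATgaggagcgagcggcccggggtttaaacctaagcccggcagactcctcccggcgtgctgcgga
In Kif11 the CHR match began 19 bases before the start site on the opposite strand, in Top2a 23, and in Cdk1 and Cdc20 on the gene's own strand 15 and 18 bases before it. Mki67 had its CHR matches further up, 116 and 98 bases before the start, and Ccnb1 had CCAAT matches but no CHR match in the window. The windows lie at chr19:37376262-37376381 (Kif11, plus strand), chr11:99024190-99024309 (Top2a, minus strand), chr7:135716380-135716499 (Mki67, minus strand), chr10:69352913-69353032 (Cdk1, minus strand), chr4:118437344-118437463 (Cdc20, minus strand) and chr13:100786487-100786606 (Ccnb1, minus strand).

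Of the 44 members, 37 had a promoter entry, which runs from 250 bases before to 50 bases after the start. CHR matches were found in 29 of the 37 (78.4%), against 20.2% of the 27025 genes with an entry, and CCAAT matches in 27 (73.0%) against 41.1%. For the cores of the HIF binding element the shares were closer to those of other genes. ACGTG was found in 11 members (29.7% against 21.8%) and GCGTG in 20 (54.1% against 35.2%), both strands counted. CHR matches within 50 bases of the start site were found in 26 members. A match is a run of letters and not a bound site. Split by the CHR match, with no test, the members' median log2 fold change with hypoxia in WT was -0.36 with a match (29 genes) and -0.32 without (8 genes), and that of KO over WT under hypoxia was 0.54 and 0.50. No entry was at hand for Cdc25c, Tpx2, Ccna2, Smc4, Aurkb, Incenp and Kif20a.

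**Figure D1:**
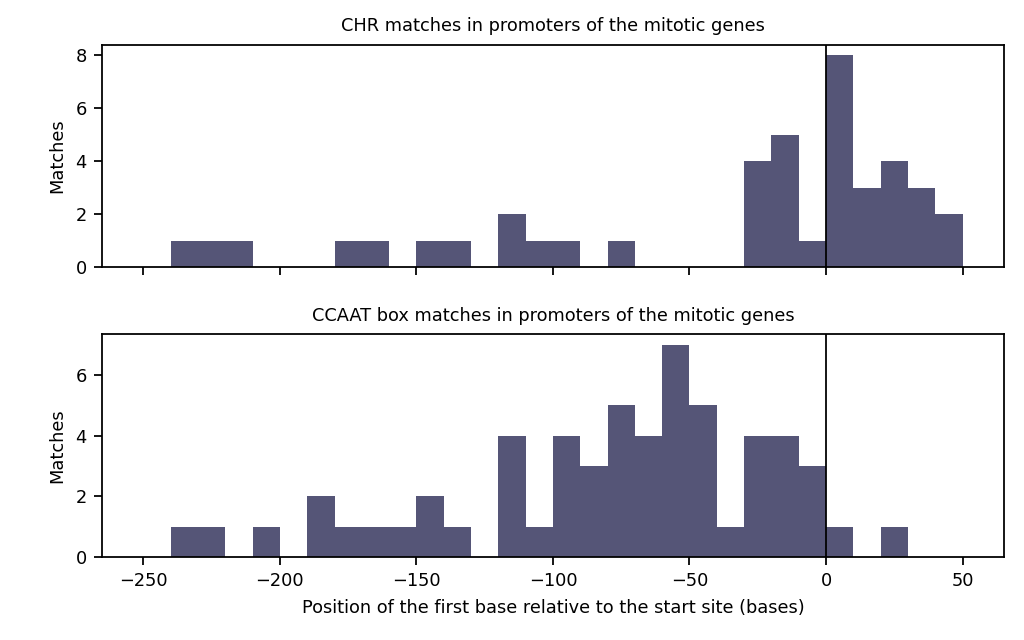
Number of CHR matches (top) and CCAAT matches (bottom) on either strand in the promoter entries of 37 mitotic genes, in bins of 10 bases; the x axis gives the position of the first base of the match in bases from the start site at 0. CHR matches lie mostly within 50 bases of the start site and CCAAT matches mostly before it.

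Summed over the 44 members, the WT normoxia libraries held 4901, 4783 and 4600.1 CPM and the WT hypoxia libraries 3651, 3064 and 4155. KO normoxia libraries held 5153, 6076 and 5047 CPM and KO hypoxia libraries 5774, 5701 and 4946. So by this sum the WT hypoxia libraries were the 3 lowest of the 12. The KO libraries, hypoxic ones included, were all above the WT normoxia libraries by it. Member by member this did not hold for KO hypoxia library 3. There 28 of the 44 members were below the WT normoxia mean, and the median log2 ratio to it was -0.03. WT hypoxia library 2 was the lowest of the 12 libraries for 43 members, and KO normoxia library 2 was the highest for 30. In bulk RNA, fewer dividing cells and less mitotic RNA per cell cannot be told apart.

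Per kilobase of exon, Mki67, which encodes the Ki-67 protein that coats mitotic chromosomes, had the highest level in every group, from 55.9 CPM per kb in WT hypoxia to 96.3 in KO hypoxia. Next came Top2a at 63.8 CPM per kb in WT normoxia, 69.6 in KO normoxia and 69.8 in KO hypoxia, and Smc4 at 47.6 in WT hypoxia. Kif18a, a motor that damps chromosome movements at metaphase, had the lowest level in each group, 1.82 to 2.54 CPM per kb. The median member stood at 13.9 CPM per kb in WT normoxia, 10.75 in WT hypoxia, 15.55 in KO normoxia and 15.8 in KO hypoxia.

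**Figure D2:**
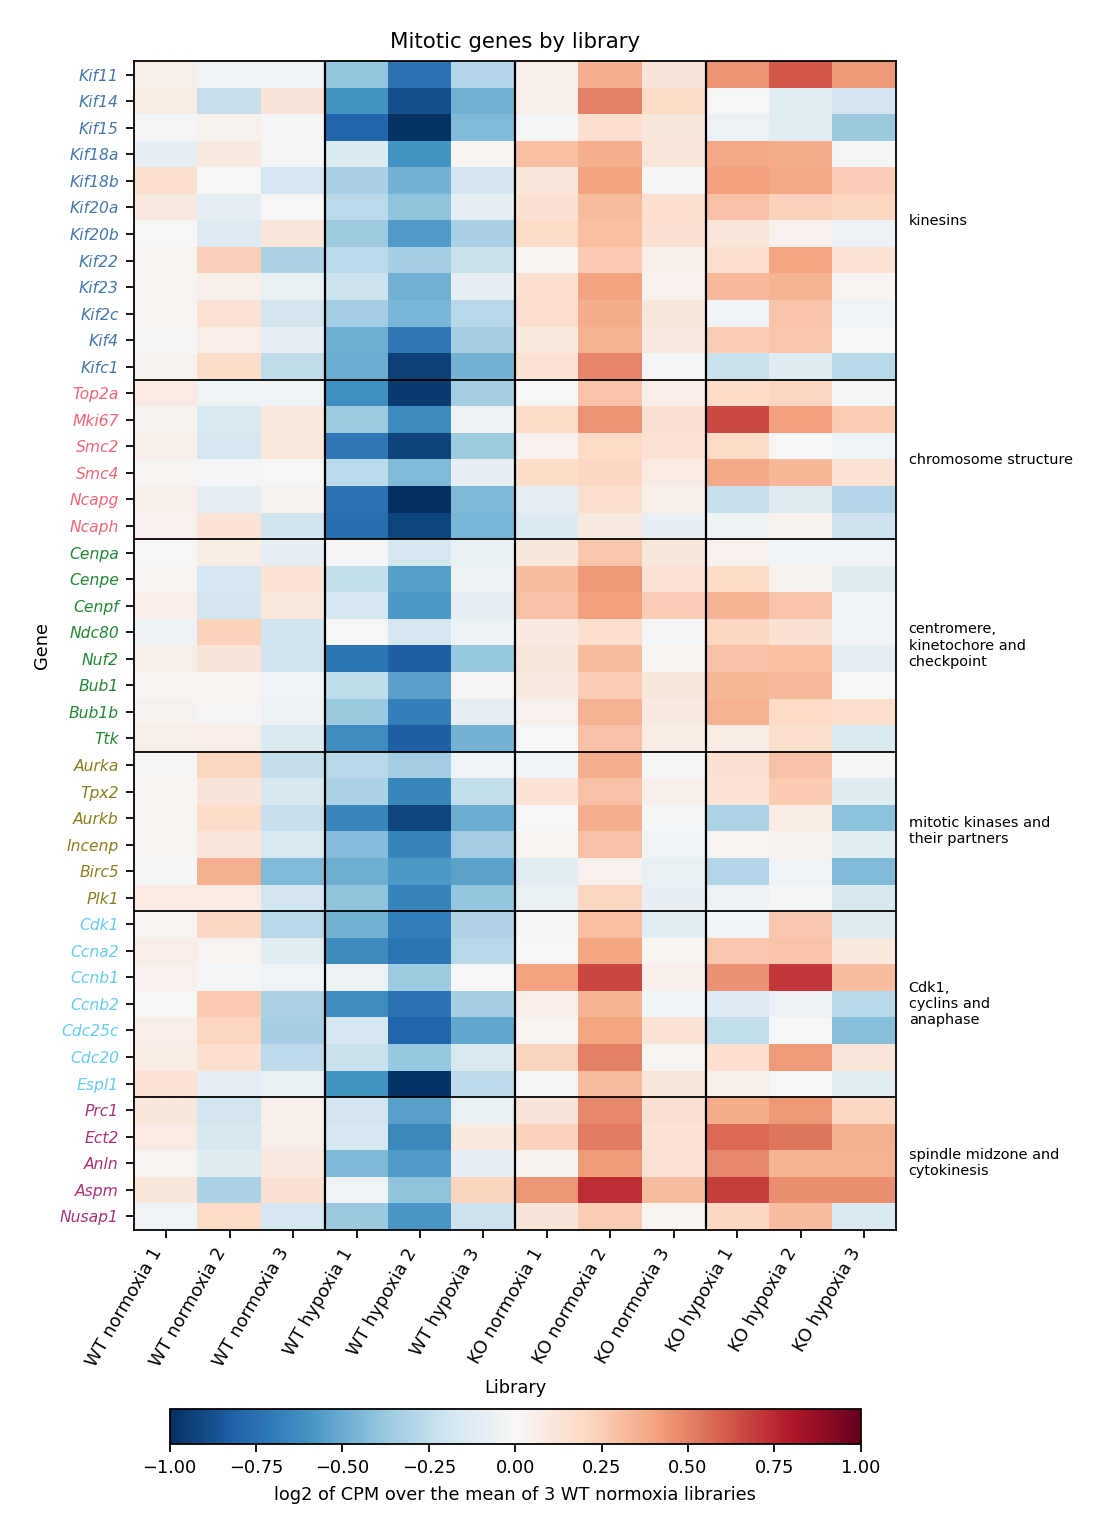
Level of each of the 44 genes (rows, grouped by role) in each of the 12 libraries (columns), as log2 of CPM over the mean of the 3 WT normoxia libraries; blue is lower and red higher. The WT hypoxia columns are mostly blue, with library 2 the darkest, while the KO columns of both conditions are mostly pale to red. In KO hypoxia library 3, 28 of the 44 genes are below the WT normoxia mean.

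WT cells held less mitotic RNA after hypoxia. All 44 members had a negative log2 fold change, with a median of -0.38 against 0.01 over all genes tested, and 24 of the 44 were called lower and 0 higher (edgeR quasi-likelihood test, Benjamini-Hochberg adjusted p under 0.05). Over all 17506 genes, 16.3% were called lower and 11.4% higher in this comparison (2859 and 2003 genes, and 2151 and 2579 when scaled by total counts alone). The changes ran from -0.74 for Ncapg, a condensin subunit, to -0.05 for Aspm, a spindle pole protein. In 27 members the WT hypoxia libraries all lay below the WT normoxia libraries, against 20.8% of all genes. The labels state no pairing, and the replicate numbers were taken to pair the WT libraries from correlations in these same data. With a replicate block within genotype 34 members were called lower, and 3434 of all 17506 genes. The 34 were the 24 and also Kif18b, Kif20a, Kif23, Mki67, Smc4, Cenpe, Cenpf, Cdc25c, Prc1 and Anln (edgeR adjusted p of 0.0097 to 0.0477).

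Other levels moved with hypoxia in WT as well. The 8 markers of T and NK cells summed to 185 to 251 CPM without TMM scaling in normoxia and 71.8 to 88.8 in hypoxia, and reads of mitochondrial genes made up 1.56% to 1.71% and 1.27% to 1.43% of the libraries, both without overlap. Of the 8 T and NK markers, 2 were called lower, 5 were at negative and 3 at positive log2 fold changes, and the median was -0.26. The 11 markers of immature and mature B cells summed to a median of 4484 and 3532 CPM, with overlap. Their part in the WT decrease was not tested beyond the fit with the immature and mature B level as a covariate, added after seeing the data, in which 27 members were called lower. That fit called 3417 of all 17506 genes lower.

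The size of the WT change differed between libraries. Between libraries of the same number, the median log2 difference of the members was -0.40 in library 1, -0.69 in library 2 and -0.14 in library 3, with 43, 44 and 34 of the 44 members lower. Library 3 was the WT library with Xist and no Y-linked reads. In a fit of only the libraries of that kind, with 1 WT library per condition that was assumed to vary like the other groups, the median was -0.15. In a fit of the WT libraries with Y-linked reads and all KO libraries, chosen after seeing the data, 32 members were called lower and the median was -0.56. That fit called 2675 of 17929 genes lower in WT. The part of sex or mouse in this difference was not tested.

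Few members changed in KO. With hypoxia, 1 of 44 members was called higher (Kif11) and 1 lower (Kifc1), against 14.5% and 15.7% of all genes tested, and the median log2 fold change was -0.01. The same-number medians in KO were 0.08, -0.08 and -0.10. Kif14, Kif15, Kif20b, Kifc1, Ncapg, Cenpa, Ccnb2 and Cdc25c had all 3 KO hypoxia libraries below the KO normoxia libraries, and Kif11 had all 3 above (24.8% and 24.1% of all genes). A fit of the 2 KO groups alone called 8 of 44 members lower, and 3243 of the 16281 genes tested in it.

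The difference between the responses was tested as an interaction. By edgeR 0 of 44 members passed, where 73 genes did overall (0.417%). An unadjusted p under 0.05 was found for 18 members, and for 1787 of all 17506 genes. DESeq2 called 2 members, and over all genes 123 higher and 204 lower. The median interaction over the members was 0.36 and the range ran from -0.09 for Cenpa to 0.77 for Kif11, against a median of 0.03 over all genes. Kif11 came closest, at 0.77 ± 0.16 (edgeR adjusted p = 0.0536), and was the 1 member that passed with a replicate block within genotype. Ncaph at 0.67 ± 0.17 (edgeR adjusted p = 0.135) and Top2a at 0.62 ± 0.19 (edgeR adjusted p = 0.227) did not pass either.

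Under hypoxia most of the 44 members were higher in KO than in WT. Of the 44 members 34 were called higher and 0 lower, against 4.72% and 5.12% of all genes tested (826 and 897 genes, and 568 and 1073 when scaled by total counts alone). The median was 0.52 on the log2 scale, and 38 members had all KO libraries above all WT libraries (15.4% of all genes). This comparison and the WT response share the WT hypoxia libraries, so they are not separate evidence. The 10 members not called were Kif18a, Kifc1, Cenpa, Cenpe, Ndc80, Aurka, Aurkb, Birc5, Ccnb2 and Cdc25c, at 0.08 to 0.48. Leaving out 1 library moved the count most for WT hypoxia library 2 (16 called, median 0.43) and WT hypoxia library 1 (18). Next came KO hypoxia library 1 (19) and KO hypoxia library 2 (21). In these fits 300, 328, 328 and 658 genes were called higher over all genes tested, against 826 with all libraries. With only the Xist libraries, which leaves 1 WT library per condition, the median was 0.33. With a covariate for Y-linked reads 14 members were called, and 271 genes over all 17506. Of the hypoxia libraries, WT 1 and 2 held Y-linked reads and under 1 CPM of Xist, while all KO libraries held Xist. Sex, as read from these genes, was thus partly confounded with genotype. Its part in the difference was not tested beyond these fits.

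Levels of other cells moved alongside. In CPM without TMM scaling, in WT hypoxia and KO hypoxia, the 9 markers of the B lineage summed to 7025 to 7791 and 6227 to 6574 CPM, without overlap. Marker by marker, 5 of these 9 were at positive log2 fold changes of KO over WT and 4 at negative ones. Their median was 0.07, with 2 called lower and 0 higher. The 11 markers of immature and mature B cells summed to 3051 to 4123 and 2098 to 2818 CPM, the 10 of monocytes and macrophages to 1435 to 2157 and 830.1 to 1522, the 12 of neutrophils to 3842 to 6948 and 2953 to 4283, and the 14 of pro-B and pre-B cells to 3848 to 4363 and 4274 to 4895. The mean log2 CPM of the pro-B and pre-B list went the other way, at 6.96 to 7.08 in WT hypoxia and 6.69 to 6.99 in KO hypoxia, with overlap. Of these 14 markers 2 were called higher and 4 lower in KO. Erythroid markers, 11 in all, summed to 121 to 418 CPM in WT hypoxia, 203 to 768 in KO hypoxia and up to 2743 in KO normoxia, and the 8 of T and NK cells to 71.8 to 88.8 and 53.5 to 64.8. No autosomal marker was at 0 in any library. With the mean log2 CPM of such lists as a covariate, 16 (monocytes and neutrophils), 17 (pro-B and pre-B), 16 (immature and mature B, added after seeing the data) and 25 (erythroid) members were called higher in KO under hypoxia, with medians of 0.46, 0.63, 0.55 and 0.50. Over all 17506 genes, 391, 206, 948 and 543 were called higher in these fits, against 826 without a covariate. The part of these cell levels in the difference was not tested further.

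Under normoxia KO and WT were not separated by the test. By edgeR 0 of 44 members were called (0.0228% of all genes were), and the median log2 fold change was 0.17. An unadjusted p under 0.05 was found for 7 members, and for 1594 of all 17506 genes. DESeq2 called 0 members, and over all genes 17 higher and 89 lower. In 15 members all KO libraries lay above all WT libraries, against 4.78% of all genes, and in 0 below (7.73%). The spread at this sample size leaves room for a difference: Aspm was at 0.51 ± 0.17 (edgeR adjusted p = 0.41) and Ccnb1 at 0.40 ± 0.14 (edgeR adjusted p = 0.469).

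**Figure D3:**
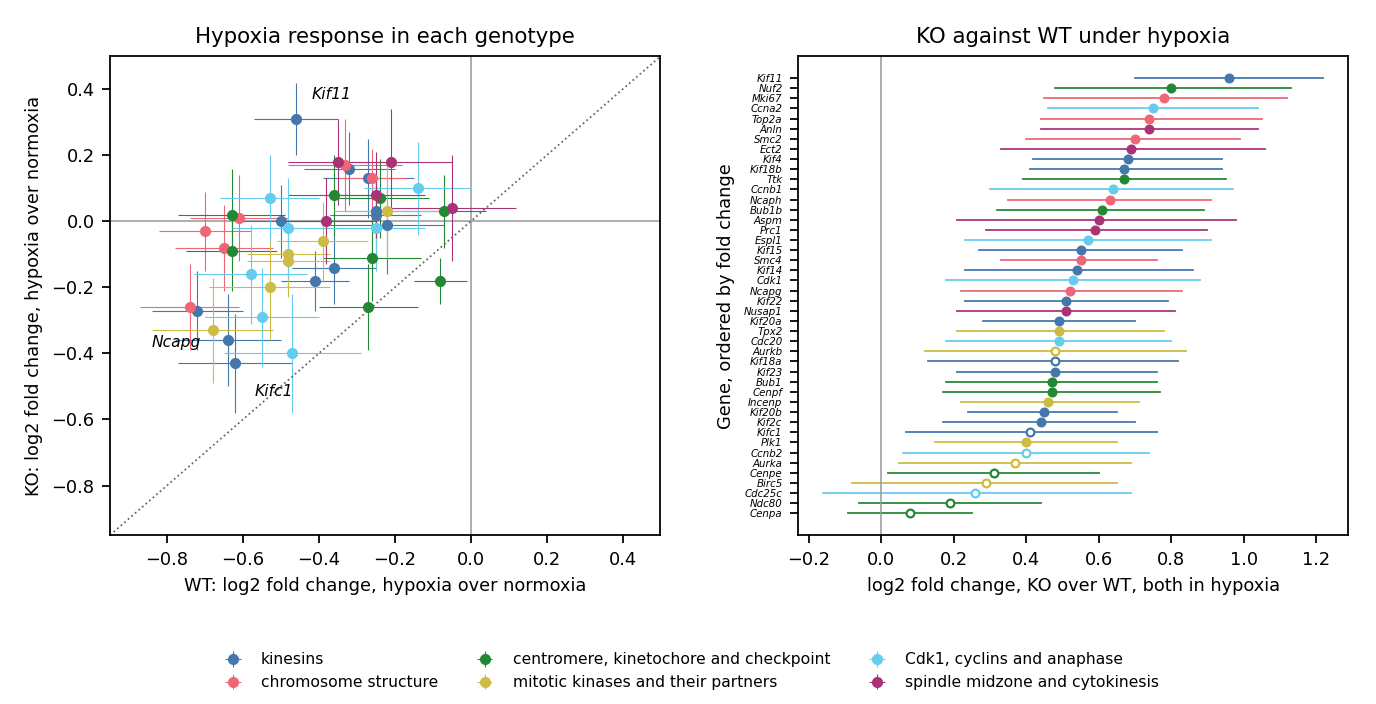
Left: log2 fold change with hypoxia in WT (x axis) and KO (y axis) for the 44 genes, coloured by role, with SE bars; the dotted line marks equal responses. Right: log2 fold change of KO over WT under hypoxia with 95% confidence intervals, filled where called. All points on the left lie at negative values in WT, with Kif11 at -0.46 in WT and 0.31 in KO; on the right all 44 estimates are above 0 and 34 are filled.

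Kif11 was the member that differed most between genotypes under hypoxia. Kif11 encodes a motor that slides spindle microtubules apart and so separates the spindle poles. It was at 186, 174 and 176 CPM in normoxic and 137, 107 and 146 in hypoxic WT libraries, and at 186, 229.9 and 196 in normoxic and 244, 275 and 241 in hypoxic KO libraries. The KO hypoxia libraries were the 3 highest and the WT hypoxia libraries the 3 lowest of the 12, without overlap. With hypoxia Kif11 changed by -0.46 ± 0.11 (edgeR adjusted p = 0.00755) in WT and by 0.31 ± 0.11 (edgeR adjusted p = 0.047) in KO, and KO was above WT under hypoxia by 0.96 ± 0.11 (edgeR adjusted p = 0.000329), a ratio of 1.95. The increase in KO was no longer called in 12 of 21 other settings, and the difference under hypoxia was not called in 1 of 21, the fit of Xist libraries only.

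Among the other kinesins, Kif22 and Kif4 are chromokinesins, which bind chromosome arms, and Kif23 is the motor of centralspindlin, which bundles microtubules between the separating chromosomes. Kif22 was at 123, 143 and 97.2 CPM in normoxic and 100.5, 96.0 and 104 in hypoxic WT libraries, and at 122, 145 and 125 in normoxic and 137, 159 and 133 in hypoxic KO libraries. Kif23 was at 107, 109 and 99.7 CPM in normoxic and 90.6, 75.5 and 99.3 in hypoxic WT libraries, and at 117, 139 and 108 in normoxic and 132, 133 and 106 in hypoxic KO libraries. For Kif22 the WT groups overlapped, and for both genes the hypoxia libraries of KO lay above those of WT. Kif4 was at 51.4, 53.5 and 48.2 CPM in normoxic and 36.4, 31.1 and 40.6 in hypoxic WT libraries, and at 54.6, 64.9 and 54.4 in normoxic and 60.9, 61.8 and 50.9 in hypoxic KO libraries. Kif18b, which trims the plus ends of astral microtubules, was at 58.1, 51.7 and 46.2 CPM in normoxic and 41.5, 37.4 and 45.9 in hypoxic WT libraries, and at 56.7, 68.7 and 52.5 in normoxic and 69.2, 68.1 and 61.8 in hypoxic KO libraries. WT hypoxia was below WT normoxia in every library of both genes, and KO hypoxia was above WT hypoxia.

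Of the 12 kinesins 7 fell in WT with hypoxia, and the list median was -0.38. Kif15, which can stand in for Kif11 in holding the poles apart, fell most, at -0.72 ± 0.12 (edgeR adjusted p = 0.00069). Kif14, which acts with citron kinase in cytokinesis, was at -0.64 ± 0.14 (edgeR adjusted p = 0.00349), Kif4 at -0.50 ± 0.11 (edgeR adjusted p = 0.00472), Kif20b, needed for late cytokinesis, at -0.41 ± 0.09 (edgeR adjusted p = 0.00386) and Kif2c, a depolymerase that corrects faulty attachments, at -0.36 ± 0.11 (edgeR adjusted p = 0.0336). Kifc1, a motor that moves to the minus end and clusters poles, was the kinesin that fell in both genotypes, at -0.62 ± 0.15 (edgeR adjusted p = 0.00834) in WT and -0.43 ± 0.15 (edgeR adjusted p = 0.0461) in KO. The call in KO was lost in 14 of 21 settings. Not called in WT without the block were Kif18a at -0.22, Kif18b at -0.32, Kif20a at -0.25, Kif22 at -0.27 and Kif23 at -0.25, of which Kif18b, Kif20a and Kif23 were called with it. In KO against WT under hypoxia 10 of the 12 were higher, with Kif4 at 0.68 ± 0.11 (edgeR adjusted p = 0.0031) and Kif18b at 0.67 ± 0.12 (edgeR adjusted p = 0.00395) after Kif11. Reads of Kifc1 can be shared with its near copy Kifc5b (664 counts per library against 2413), and Kif20a overlaps Cdc23 on the other strand (1597 counts against 1135), so without a stated strand setting both levels are uncertain. Overlaps on the other strand with fewer counts than the member include Elovl1 at Cdc20 (1531 against 3198) and Rccd1 at Prc1 (586 against 1989). Pdzd11 at Kif4 (426 against 1578) and Exosc9 at Ccna2 (607 against 3785.5) are others.

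All 6 genes of chromosome structure were higher in KO than in WT under hypoxia, and 4 of 6 fell in WT (6 of 6 with the replicate block, Mki67 and Smc4 added). Top2a, the topoisomerase that untangles sister chromatids, was at 609, 559 and 557 CPM in normoxic and 376, 297 and 455 in hypoxic WT libraries, and at 576, 703 and 603 in normoxic and 652, 664 and 572 in hypoxic KO libraries. Mki67 was at 728, 643 and 759 CPM in normoxic and 553, 455 and 680.3 in hypoxic WT libraries, and at 816, 972 and 788 in normoxic and 1120.0, 941 and 846 in hypoxic KO libraries. In Top2a the WT hypoxia libraries were below all other libraries, while in Mki67 library 3 of WT hypoxia reached the range of WT normoxia. Top2a fell, at -0.61 ± 0.13 (edgeR adjusted p = 0.00386) in WT and was at 0.01 ± 0.13 (edgeR adjusted p = 0.982) in KO, and Mki67 was at -0.33 ± 0.15 (edgeR adjusted p = 0.104) and 0.17 ± 0.14 (edgeR adjusted p = 0.394). Under hypoxia KO exceeded WT by 0.74 ± 0.13 (edgeR adjusted p = 0.00496) for Top2a and 0.78 ± 0.15 (edgeR adjusted p = 0.00595) for Mki67.

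The other 4 members of the list are subunits of condensin, the ring that compacts chromosomes. Smc4 was at 301, 294 and 296 CPM in normoxic and 246, 218 and 280.3 in hypoxic WT libraries, and at 336, 343 and 315 in normoxic and 386, 374 and 328 in hypoxic KO libraries. Smc2, its partner in the core, was at 107, 90.8 and 111 CPM in normoxic and 62.7, 54.1 and 80.2 in hypoxic WT libraries, and at 106, 118 and 114 in normoxic and 118, 102 and 99.5 in hypoxic KO libraries. In both the WT hypoxia libraries lay below WT normoxia without overlap, but by unequal amounts, -0.26 ± 0.09 (edgeR adjusted p = 0.0509) for Smc4 and -0.65 ± 0.13 (edgeR adjusted p = 0.00213) for Smc2. Ncapg and Ncaph, which complete condensin I, fell too, at -0.74 ± 0.13 (edgeR adjusted p = 0.0011) and -0.70 ± 0.12 (edgeR adjusted p = 0.000837). In KO with hypoxia the values were -0.08 for Smc2, 0.13 for Smc4, -0.26 for Ncapg and -0.03 for Ncaph, none called. Smc4 and Smc2 were higher in KO under hypoxia by 0.55 ± 0.09 (edgeR adjusted p = 0.00356) and 0.70 ± 0.13 (edgeR adjusted p = 0.00558). Ncapg overlaps Lcorl on the other strand (1103 counts per library against 1219), which leaves its level uncertain.

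**Figure D4:**
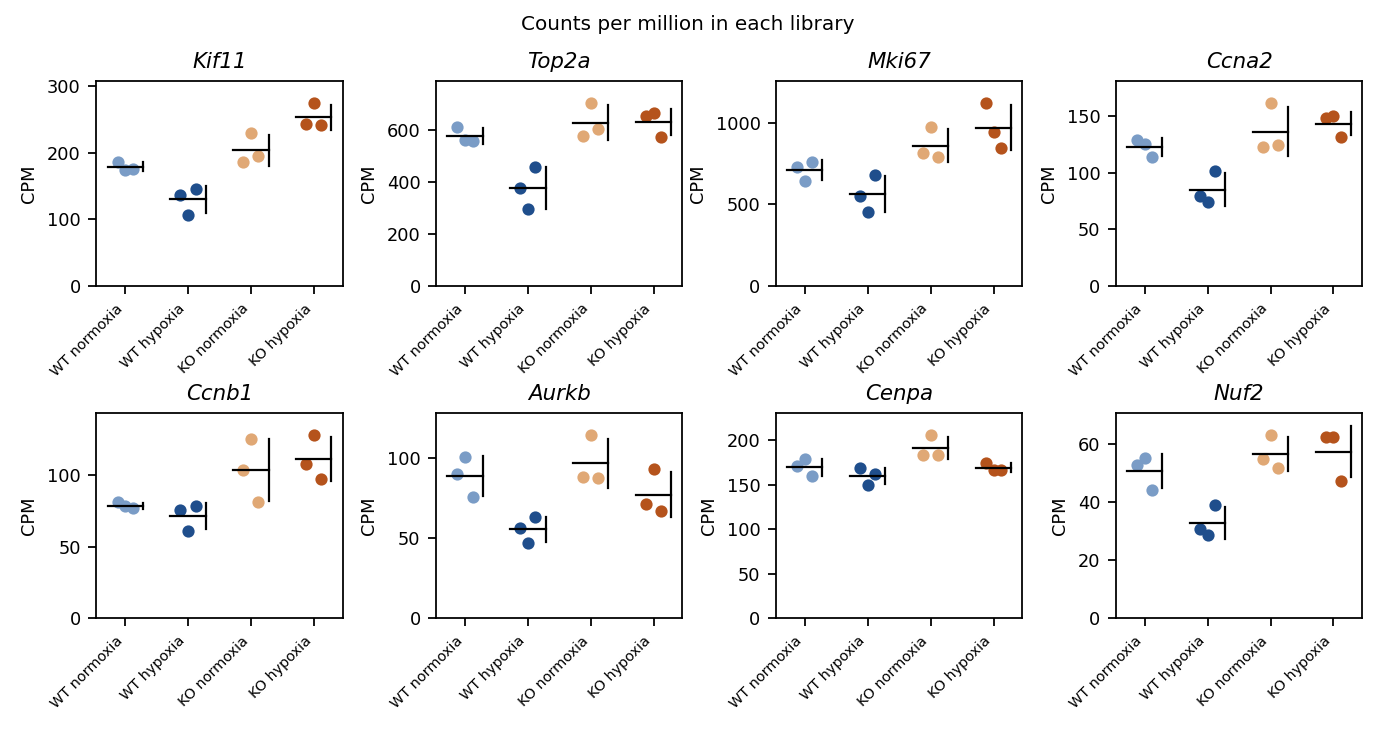
CPM of 8 genes in the 12 libraries, by group; points are libraries, horizontal lines the mean of 3 libraries and vertical lines the SD. The WT hypoxia points lie lowest for Kif11, Top2a, Ccna2, Aurkb and Nuf2, while Cenpa is nearly level across the groups.

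Of the 6 lists, the centromere, kinetochore and checkpoint genes had the widest range of changes, in WT and between genotypes under hypoxia. Cenpa, the histone H3 variant that marks centromeres, was at 171, 179 and 159.8 CPM in normoxic and 169, 150.2 and 162 in hypoxic WT libraries, and at 184, 206 and 184 in normoxic and 175, 166 and 167 in hypoxic KO libraries. Its WT groups overlapped, and with changes of -0.08 ± 0.07 (edgeR adjusted p = 0.426) in WT, -0.18 ± 0.07 (edgeR adjusted p = 0.086) in KO and 0.08 ± 0.07 (edgeR adjusted p = 0.535) for KO against WT under hypoxia (95% confidence interval -0.09 to 0.25), it was the member with the smallest difference between genotypes. Ndc80, part of the complex that grips microtubules, was also at small values, -0.07 ± 0.11 (edgeR adjusted p = 0.658) in WT and 0.19 ± 0.11 (edgeR adjusted p = 0.306) between genotypes. Nuf2, the direct partner of Ndc80 in that complex, was at 52.8, 55.3 and 44.1 CPM in normoxic and 30.7, 28.8 and 39.1 in hypoxic WT libraries, and at 54.9, 63.0 and 51.8 in normoxic and 62.3, 62.5 and 47.4 in hypoxic KO libraries. All WT hypoxia libraries of Nuf2 lay below all other libraries, and it fell, at -0.63 ± 0.14 (edgeR adjusted p = 0.00499) in WT and was higher in KO under hypoxia by 0.80 ± 0.14 (edgeR adjusted p = 0.00439). The difference between Ndc80 and Nuf2 was not tested.

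Checkpoint genes gave the other calls. Bub1b, which encodes BubR1 and restrains anaphase until chromosomes attach, was at 120.1, 119 and 114 CPM in normoxic and 90.9, 73.3 and 109.5 in hypoxic WT libraries, and at 121, 149.6 and 125 in normoxic and 149, 135 and 133 in hypoxic KO libraries. Ttk, the Mps1 kinase that starts the checkpoint signal, was at 24.7, 24.9 and 21.6 CPM in normoxic and 15.4, 13.4 and 17.1 in hypoxic WT libraries, and at 23.8, 29.0 and 25.0 in normoxic and 24.9, 26.8 and 21.4 in hypoxic KO libraries. In both the WT hypoxia libraries lay below those of the other groups. In WT Ttk fell, at -0.63 ± 0.12 (edgeR adjusted p = 0.00182), and so did Bub1b at -0.36 ± 0.12 (edgeR adjusted p = 0.0421), and the call of Bub1b was lost in 13 of 22 settings. KO exceeded WT under hypoxia by 0.67 ± 0.12 (edgeR adjusted p = 0.00535) and 0.61 ± 0.12 (edgeR adjusted p = 0.00933). Cenpf, a large kinetochore protein, was at 119, 99.5 and 122 CPM in normoxic and 101, 76.6 and 107 in hypoxic WT libraries, and at 139.5, 151 and 135 in normoxic and 144, 139 and 111 in hypoxic KO libraries, with overlap between the WT groups and none between WT and KO under hypoxia. Cenpf at -0.26 ± 0.13 (edgeR adjusted p = 0.152), Bub1 at -0.24 and Cenpe, a kinesin of the kinetochore, at -0.27 were not called in WT, though Cenpf and Cenpe were with the replicate block. In KO against WT under hypoxia Cenpf (0.47) and Bub1 (0.47) were called and Cenpe (0.31) was not.

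Of the 6 mitotic kinases and their partners 5 fell in WT, with or without the replicate block, and 3 were higher in KO under hypoxia. Incenp, the scaffold that activates Aurora B, was at 172, 185 and 153 CPM in normoxic and 126, 107 and 134 in hypoxic WT libraries, and at 173, 208 and 166 in normoxic and 173, 175 and 157 in hypoxic KO libraries. Aurkb, which encodes Aurora B, was at 90.0, 100.5 and 75.5 CPM in normoxic and 56.2, 47.0 and 63.0 in hypoxic WT libraries, and at 88.4, 114 and 87.3 in normoxic and 71.4, 93.2 and 66.9 in hypoxic KO libraries. In both the WT hypoxia libraries were the lowest, and for Aurkb KO hypoxia reached down to 66.9 CPM, near the WT hypoxia high of 63.0. In WT Aurkb fell, at -0.68 ± 0.16 (edgeR adjusted p = 0.00643), as did Incenp at -0.48 ± 0.11 (edgeR adjusted p = 0.00458) and Birc5 (survivin), which takes the complex to the centromere, at -0.53 ± 0.16 (edgeR adjusted p = 0.0245). In KO the values were -0.33 ± 0.16 (edgeR adjusted p = 0.135) for Aurkb, -0.12 for Incenp and -0.20 for Birc5. Of the complex, Incenp was higher in KO under hypoxia (0.46 ± 0.11 (edgeR adjusted p = 0.0162)), while Aurkb at 0.48 ± 0.16 (edgeR adjusted p = 0.0744) and Birc5 at 0.29 were not called.

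Tpx2, which activates Aurora A on spindle microtubules, was at 119, 128 and 105 CPM in normoxic and 94.3, 74.9 and 99.2 in hypoxic WT libraries, and at 129, 144 and 122 in normoxic and 129, 141 and 108 in hypoxic KO libraries. The WT hypoxia libraries were below all other libraries, and it fell, at -0.39 ± 0.12 (edgeR adjusted p = 0.0285), a call lost in 6 of 22 settings. Plk1, the polo-like kinase that acts at poles, kinetochores and midzone, fell, at -0.48 ± 0.11 (edgeR adjusted p = 0.00575). Aurka, which matures the spindle poles, was at -0.22 ± 0.14 (edgeR adjusted p = 0.27) and did not pass. Under hypoxia KO exceeded WT in Tpx2 by 0.49 ± 0.12 (edgeR adjusted p = 0.0234) and in Plk1 by 0.40 ± 0.11 (edgeR adjusted p = 0.0375), and Aurka was at 0.37 ± 0.14 (edgeR adjusted p = 0.115).

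The cyclins differed in their calls. Ccna2 (cyclin A2), which serves S phase and early mitosis, was at 129, 126 and 114 CPM in normoxic and 79.4, 74.2 and 102 in hypoxic WT libraries, and at 123, 162 and 124 in normoxic and 148, 150.0 and 131 in hypoxic KO libraries. Ccnb1 (cyclin B1), which drives mitotic entry with Cdk1, was at 80.8, 78.0 and 76.6 CPM in normoxic and 75.2, 60.8 and 78.1 in hypoxic WT libraries, and at 104, 125 and 81.4 in normoxic and 108, 128 and 97.4 in hypoxic KO libraries. The WT hypoxia libraries of Ccna2 lay below all others, while those of Ccnb1 overlapped WT normoxia, and all KO libraries of Ccnb1 were above all WT libraries. In WT Ccna2 fell, at -0.53 ± 0.13 (edgeR adjusted p = 0.00716), with Ccnb2 at -0.55 ± 0.15 (edgeR adjusted p = 0.0134) and Cdk1 at -0.48 ± 0.15 (edgeR adjusted p = 0.0303), and Ccnb1 was at -0.14 ± 0.14 (edgeR adjusted p = 0.522). Between genotypes under hypoxia Ccna2 was at 0.75 ± 0.13 (edgeR adjusted p = 0.00365), Ccnb1 at 0.64 ± 0.14 (edgeR adjusted p = 0.016) and Cdk1 at 0.53 ± 0.15 (edgeR adjusted p = 0.0431). Ccnb2 at 0.40 ± 0.15 (edgeR adjusted p = 0.104) was not called. Pseudogenes of the B cyclins took few reads (158 counts per library for Ccnb2-ps and 36.2 for Ccnb1-ps, against 2553 and 2829).

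For the exit from mitosis, Cdc20, the activator of the anaphase-promoting complex, was at 103, 109 and 81.4 CPM in normoxic and 83.7, 75.2 and 87.8 in hypoxic WT libraries, and at 114, 139 and 98.7 in normoxic and 109.7, 131 and 106 in hypoxic KO libraries. The WT groups overlapped, and KO hypoxia lay above WT hypoxia. Cdc20 was at -0.25 ± 0.13 (edgeR adjusted p = 0.198) in WT and at 0.49 ± 0.13 (edgeR adjusted p = 0.0379) between genotypes. Espl1 (separase), the protease that cuts the last links between sisters, fell, at -0.58 ± 0.15 (edgeR adjusted p = 0.0101) in WT and was higher in KO by 0.57 ± 0.15 (edgeR adjusted p = 0.0304). Cdc25c, a phosphatase that switches on Cdk1, had the lowest CPM of the list and was at -0.47 ± 0.18 (edgeR adjusted p = 0.0719) in WT and -0.40 in KO, not called in either, but called in WT with the replicate block.

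Of the 5 midzone and cytokinesis genes 1 fell in WT (3 with the replicate block, Prc1 and Anln added), and all 5 were higher in KO under hypoxia. Nusap1, which bundles spindle microtubules around chromosomes, was at 113, 133 and 103 CPM in normoxic and 90.0, 77.7 and 101 in hypoxic WT libraries, and at 127, 139 and 118 in normoxic and 134, 144 and 105 in hypoxic KO libraries. Aspm, which focuses the spindle poles, was at 102, 76.0 and 105 CPM in normoxic and 91.7, 71.5 and 110.2 in hypoxic WT libraries, and at 128, 157 and 118 in normoxic and 153, 130.0 and 131 in hypoxic KO libraries. The WT groups overlapped for Aspm and not for Nusap1, and for Aspm all KO libraries were above all WT libraries. Prc1, which crosslinks the midzone, was at 64.5, 52.4 and 61.7 CPM in normoxic and 52.4, 40.8 and 56.6 in hypoxic WT libraries, and at 65.1, 82.8 and 66 in normoxic and 76.9, 80.6 and 68.8 in hypoxic KO libraries. Anln (anillin), the scaffold of the contractile ring, was at 36.7, 33.1 and 38.5 CPM in normoxic and 26.5, 24.4 and 34.2 in hypoxic WT libraries, and at 37, 48.5 and 39.9 in normoxic and 50.4, 45.8 and 45.9 in hypoxic KO libraries. In both the KO hypoxia libraries were above the WT hypoxia libraries, and WT hypoxia library 3 reached the range of WT normoxia. Without the block only Nusap1 was called in WT, at -0.38 ± 0.13 (edgeR adjusted p = 0.0475), and that call was lost in 15 of 22 settings. Under hypoxia KO exceeded WT by 0.74 ± 0.13 (edgeR adjusted p = 0.0045) in Anln, 0.69 in Ect2, which is needed for cytokinesis, 0.60 in Aspm, 0.59 in Prc1 and 0.51 in Nusap1. The call of Aspm was lost in 14 of 21 settings.

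Genes that work with the members were also mostly lower with hypoxia in WT where called. Over all genes tested 16.3% were called lower in WT, 15.7% lower in KO and 4.72% higher in KO than in WT under hypoxia. Of 37 further centromere and kinetochore genes 27 were lower with hypoxia in WT and 8 in KO, where 1 (Zwint, 0.27 ± 0.09, edgeR adjusted p = 0.0456) was higher, and 12 were higher in KO than in WT under hypoxia. In WT, Spc24 of the Ndc80 complex was at -1.07 ± 0.13, Kntc1 and Zwilch, which bring dynein to kinetochores, at -1.14 ± 0.17 and -0.98 ± 0.16, and Cenpi, of the inner kinetochore, at -0.91 ± 0.15, all called lower. Of 24 checkpoint and anaphase-promoting complex genes 11 fell in WT and 4 in KO (16.7%, near the share of all genes), led in WT by Trip13, a remodeller of checkpoint proteins, at -1.04 ± 0.15, Mad1l1 at -0.78 ± 0.13, Fbxo5 at -0.50 ± 0.12 and Mad2l1 at -0.50 ± 0.12. Under hypoxia 4 of these 24 were called higher in KO than in WT. By sign 14 were positive and 10 negative, and the median was 0.12. Of 15 cohesin and condensin genes 7 fell in WT and 2 in KO, with Cdca5 (sororin) and Esco2, which secure cohesion in S phase, both at -0.86 ± 0.14, Smc1a at -0.32 ± 0.06 and Ncapg2 at -0.71 ± 0.14. Of 28 other spindle and cytokinesis genes 14 fell in WT and 1 in KO, among them Racgap1, the partner of Kif23, at -0.54 ± 0.11, Depdc1a at -0.64 ± 0.13, Cdca3 at -0.64 ± 0.14 and Cdca2 at -0.56 ± 0.13. Kif2a, a depolymerase that also works outside mitosis, was higher in KO with hypoxia (0.39 ± 0.08) and was at 0.08 ± 0.08 in WT, not called. Higher in KO than in WT under hypoxia were 6 of the 15 cohesin and condensin genes and 13 of the 28 spindle and cytokinesis genes.

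Of 16 kinases and phosphatases of mitotic entry 13 fell in WT and 3 in KO (18.8%, against 15.7% of all genes). Under hypoxia 8 of the 16 were higher in KO than in WT. Pkmyt1, an inhibitor of Cdk1, fell in both, at -1.08 ± 0.12 in WT and -0.46 ± 0.12 in KO. In WT Pbk was at -1.0 ± 0.14, Bora, the cofactor of Aurora A, at -0.69 ± 0.11 and Melk at -0.89 ± 0.16. Cdc25b, the phosphatase that starts Cdk1 activation, went the other way in both genotypes, at 0.49 ± 0.10 in WT and 0.56 ± 0.10 in KO (edgeR adjusted p = 0.00297 and 0.00112).

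Among the regulators of G2 and M transcription, Foxm1 and Mybl2, which activate late cell cycle genes, fell in WT with hypoxia, and the shared MuvB core was not called in WT. Foxm1 fell in WT, at -0.56 ± 0.14, and was at 0.07 ± 0.14 in KO, and KO exceeded WT under hypoxia by 0.86 ± 0.14 (edgeR adjusted p = 0.00354). Mybl2 (B-Myb) fell in WT, at -0.77 ± 0.12, and was at -0.18 ± 0.12 in KO. Rbl1 (p107), a pocket protein that is itself made in S phase, fell in both, at -1.18 ± 0.11 in WT and -0.77 ± 0.11 in KO. Tfdp1 and E2f4, subunits of the complex that represses these genes in resting cells, were at -0.51 ± 0.10 and -0.35 ± 0.08 in WT, both called. Not called in WT were E2f5 at 0.32, Lin9 at 0.24, Rbbp4 at -0.15, Lin52 and Nfyc at -0.10 each, Lin37 at -0.08, Nfya and Nfyb at -0.03 each, Lin54 at -0.02 and Rbl2 (p130) at 0.00. Of these, Lin54, the MuvB subunit that binds the CHR, was higher with hypoxia in KO (0.27 ± 0.09, edgeR adjusted p = 0.033), and Lin54, Lin52 and Rbbp4 were among the 7 regulators of 15 that were higher in KO under hypoxia.

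Kinesins that carry cargo gave no such pattern. Of 16 transport kinesins tested 3 were higher (Kif5a at 1.07 ± 0.22, Kif21b at 0.54 ± 0.13 and Kif3a at 0.58 ± 0.16) and 1 lower (Kif1a at -3.08 ± 0.95) with hypoxia in WT, and their median was 0.14. In KO 5 were higher and 3 lower.

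S phase genes fell in both genotypes. Of 40 genes of DNA replication 36 were lower and 1 higher in WT, with a median of -0.98, and 28 were lower and 1 higher in KO, with a median of -0.51. Mcm5 and Mcm4 of the replicative helicase fell, at -1.36 ± 0.11 and -0.98 ± 0.09 in WT and -0.89 ± 0.11 and -0.73 ± 0.09 in KO. Pola1, the catalytic subunit of the polymerase that makes primers, was at -1.60 ± 0.14 and -0.88 ± 0.14, and Lig1, which joins the fragments, at -1.33 ± 0.12 and -0.94 ± 0.12. Prim2, the large primase subunit, was higher in both, at 1.25 ± 0.15 and 0.48 ± 0.14. Under hypoxia 12 of the 40 were higher and 1 lower in KO than in WT, with a median of 0.28. The median interaction was 0.39 for the S phase genes and 0.36 for the mitotic members, and the difference between the lists was not tested.

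**Figure D5:**
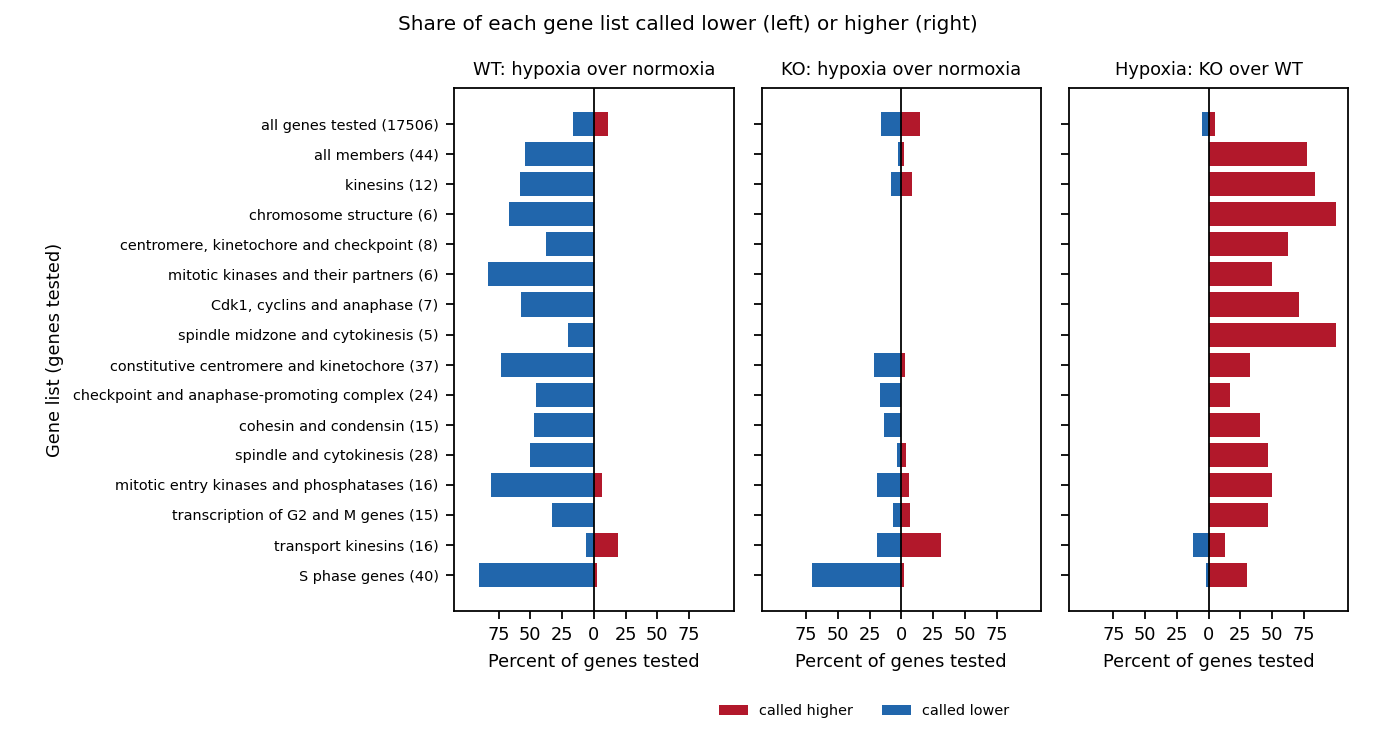
Share of each gene list called lower (blue, to the left) or higher (red, to the right) by edgeR in 3 comparisons, in percent of the genes tested (number in brackets). The lists of the 44 members extend left in WT, hardly at all in KO, and right for KO over WT under hypoxia. Further mitotic lists also extend left in KO, by up to 21.6%, and the S phase list extends left in both genotypes.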

How the data were processed

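The deposited table, made by the authors, holds raw counts of RNA-seq reads for 46983 gene identifiers in 12 libraries, with no normalization. The submitters' processing notes name CASAVA, Bowtie 0.12.2 and the build mm10. The gene counter, the annotation release and how strand was treated: not given in the sources used here. Every column matched 1 sample's label. Symbols came from a table of gene identifiers (46488 matched), exon lengths from GENCODE M21 and promoters from RefSeq. Genes with low counts were removed by edgeR's default filter (17506 kept, and 29477 removed that held 0.074% of counts). TMM factors were 0.969 to 1.039.

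A quasi-likelihood model of the 4 group means was fitted to all 12 libraries (edgeR 4.0.16 in R 4.3.3, 8 residual degrees of freedom, common biological coefficient of variation 0.164), and p-values were adjusted over all genes tested by the Benjamini-Hochberg method and called under 0.05. Fold changes are on the log2 scale with their SE. The fit was tested on simulated data. Replicates differed beyond sampling noise (chi-square per gene 12 to 89). Over genes, deviations of same-numbered libraries correlated at 0.196 to 0.434 in WT, so the numbers were taken to pair the WT libraries, and at -0.039 to 0.182 in KO, where they were not. The replicate block within genotype was nevertheless fitted to both genotypes, so in that fit the KO libraries were blocked by number too. The alternatives were other scalings and filters, only the groups compared, replicate blocks, covariates for Y-linked reads and for other cells, DESeq2 1.42.0 and leaving out each library. Members and lists were chosen with earlier results of these data known. Values in every library are given for the 3 members of each role with the highest mean CPM and for the members called in a genotype comparison, at most 10 in order of adjusted p. From the other lists come up to 4 called genes with the smallest adjusted p in WT, genes called against most of their list and all transcription regulators.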

Additional observations from a re-analysis of the deposited data

Results flagged for a closer look

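Kif11 had estimates of opposite sign in the genotypes and was flagged because its libraries did not overlap in either. All WT hypoxia libraries (107 to 146 CPM) lay below the WT normoxia libraries (174 to 186.5 CPM), as in 20.8% of all genes. All KO hypoxia libraries (241 to 275 CPM) lay above the KO normoxia libraries (186 to 229.9 CPM), as in 24.1% of all genes. The increase in KO was no longer called in 12 of 21 other settings. The response of KO minus that of WT was 0.77 ± 0.16 on the log2 scale, and as an interaction it did not pass the test (edgeR adjusted p = 0.0536). Over 27 other settings it ran from 0.62 to 0.91 and passed in 9.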

How the results depend on the processing

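No called member changed sign while called, and of the counts and medians the median of the KO response, -0.01, changed sign, in 6 settings. Of the values for single members under other settings, 4532 stayed on their side of the threshold, 152 of them with a changed sign and no call in either fit, 288 lost the call and 108 gained it. With only the Xist libraries, which leaves 1 WT library per condition, the median was -0.15 in WT and 0.33 for KO against WT under hypoxia. The median interaction in that fit was 0.07. With only the WT libraries with Y-linked reads and all KO libraries, added after seeing the data, the median was -0.56 in WT and 0.65 between genotypes under hypoxia, and the interaction called 6 members (median 0.54). Over all 17929 genes tested in that fit, the interaction called 144 higher and 102 lower. The genotype count under hypoxia, 34, became 14 with the Y-linked covariate, 16 with monocytes and neutrophils, 17 with pro-B and pre-B and 16 with immature and mature B cells (added after seeing the data). Over all genes, 826 called higher became 271, 391, 206 and 948 in the same fits. The KO response, 1 lower and 1 higher, became 0 lower with total counts alone or the erythroid covariate, 0 and 0 with the monocyte and neutrophil or the pro-B and pre-B covariate, 3 and 0 with TMM without immunoglobulin and mitochondrial genes, 4 and 0 without the filter, and 8 lower with only the compared groups. The fit of only the compared groups called 3243 of 16281 genes lower in KO. The interaction, 0 called, became 2 without the filter and with DESeq2, 1 with the Y-linked covariate and 3 with that for immature and mature B cells. Over all genes, the interaction in these 4 fits called 50, 123, 47 and 410 higher and 144, 204, 100 and 362 lower. With the replicate block within genotype, 34 members were lower in WT (24 without it), 3 lower and 1 higher in KO and 1 in the interaction. With 1 block of 3 levels shared by the genotypes, 0 were lower and 0 higher in KO, and 24 were lower in WT. Leaving out each library in turn gave 17 to 30 members lower in WT (median -0.50 to -0.30), 0 to 1 lower and 0 to 1 higher in KO (median -0.05 to 0.09), 16 to 38 higher in KO under hypoxia (median 0.43 to 0.65) and 0 to 6 in the interaction (median 0.25 to 0.48). The cause was not tested for any of these shifts. Depth did not remove any member, and 3 libraries per group limit the precision.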
